A study of Mus musculus with 6 samples.

Results

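The 10 genes *Hdac1* to *Hdac10*, which encode the zinc-dependent histone deacetylases of classes I, IIa, and IIb, were taken by symbol from the table of normalized counts, and all 10 were found among its 26264 genes. The table covers bulk RNA-seq of hematopoietic stem cells (HSCs) sorted as LSK CD150+ CD48- cells from the bone marrow of untreated females aged 8 weeks, and each mouse gave 1 library. WT mice were C57Bl/6 (*n* = 3), and *Irf1-/-* mice, labelled IRF1 KO, were B6.129S2-Irf1tm1Mak/J (*n* = 3). The deletion was present in the whole body, so the cells around the *Irf1-/-* HSCs lacked IRF1 as well. The comparison asked whether loss of this transcription factor went with other levels of the deacetylase transcripts.

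Histone deacetylases remove the acetyl groups that acetyltransferases such as p300 and CBP place on lysines, and most class I enzymes do so within nuclear corepressor complexes. Class IIa enzymes have little catalytic activity of their own and move between nucleus and cytoplasm as partners of MEF2 transcription factors, while class IIb enzymes act mostly on substrates other than histones. In the blood system, *Hdac1* and *Hdac2* together are needed to maintain HSCs, and *Hdac3* is needed for DNA replication in early progenitors.

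Transcripts of all 10 deacetylases were abundant enough to be tested in HSCs of both genotypes, and none differed past the threshold between *Irf1-/-* and WT HSCs. The class IV gene *Hdac11*, which is not among the 10, was called lower in *Irf1-/-* HSCs and is given for comparison. A gene was called when its limma *P*, adjusted with the Benjamini-Hochberg method over the 17404 tested genes, was under 0.05 and its log2 fold change was above 0.58 or below −0.58. By this rule 0 of 10 deacetylases were called higher, where 0.96% of all tested genes were, and 0 of 10 were called lower, where 0.954% were. Without the fold threshold, 0 of 10 had an adjusted *P* under 0.05, compared with 3.22% of all tested genes. At an unadjusted *P* under 0.05, limma, edgeR, and DESeq2 each counted 0 of 10, where limma counted 8.38% of all tested genes as higher and 8.07% as lower. The libraries of the genotypes did not overlap for 0 of 10 deacetylases, whereas the *Irf1-/-* libraries were all higher for 10.6% and all lower for 9.27% of tested genes. For the called genes and the adjusted *P*, a count of 0 among 10 genes is near the background. For the unadjusted *P* and the lack of overlap, 0 of 10 is under the rates of all tested genes. Whether 10 genes differ from those rates was not tested.

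The log2 fold changes (*Irf1-/-* over WT, on log2(normalized count + 1)) of the 10 deacetylases lay between −0.20 and 0.11, and their 95% intervals lay within ±0.58 for 10 of 10, as they did for 50.2% of all tested genes. Intervals are wider at low counts. The tested genes reach down to a mean of 10, whereas the lowest WT mean of the 10 was 826 (*Hdac9*), so this share does not compare genes of like level. In 5 of 10 the fold change was below 0, with a median of −0.015 over the 10, beside 50.4% and −0.0028 over all tested genes. By class, 4 of 4 class I genes, 1 of 4 class IIa genes, and 0 of 2 class IIb genes were below 0, and none of these single values passed the test. Because whole HSC samples were measured, fewer cells with a transcript and less RNA per cell cannot be told apart.

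**Figure D1:**
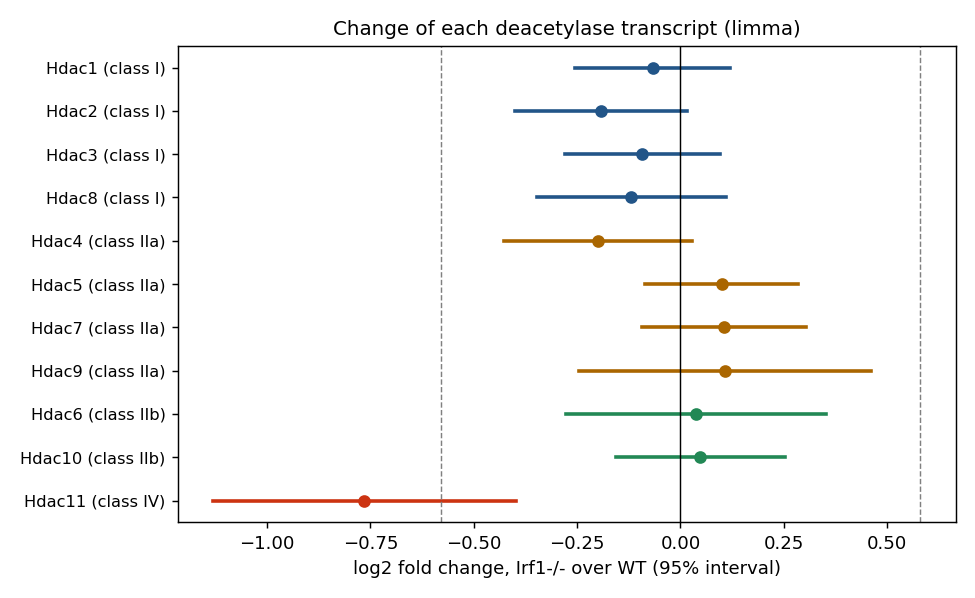
Log2 fold change of each deacetylase transcript in *Irf1-/-* over WT HSCs (x axis), with points for the limma estimate, lines for its 95% interval (*n* = 3 per genotype), dashed lines at ±0.58, and colors for the class. The intervals of *Hdac1* to *Hdac10* include 0, and that of *Hdac11* lies below it, from −1.13 to −0.40.

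Reads on genes numbered between 43138521 and 59658080 per library, and a deacetylase of the 10 had between 668 and 17230 of them, which puts the counting error of the lowest value at 3.87%. The kit attaches no molecular identifiers, so this error covers counting only. *Irf1* itself had 9267, 9524, and 9287 normalized counts in *Irf1-/-* replicates 2, 3, and 4 and 10122, 11120, and 12057 in WT replicates 2, 3, and 4. The *Irf1-/-* libraries were thus all below the WT libraries and averaged 84.3% of them (log2 fold change −0.24, SE 0.088, limma adjusted *P* = 0.17). A count over the whole gene does not show which part of *Irf1* was read. Of 8 HSC marker genes, 8 were tested and *Kit* was the most abundant, with between 77902 and 88715 normalized counts, and of 7 T and NK cell markers 4 were tested. Among these 7, *Cd8a* was at most 2.59, *Cd3e* at most 7.89, and *Cd3g* at most 12.4, while *Ncr1* lay between 2.25 and 36.6, *Cd3d* between 18.1 and 52.7, *Cd4* between 117 and 340, and *Klrb1c* between 394 and 837.

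The libraries did not separate by genotype alone. On the first principal component of all tested genes (32.4% of the variance), *Irf1-/-* replicates 2 and 4 and WT replicate 4 lay between −39.2 and −30.8, and *Irf1-/-* replicate 3 and WT replicates 2 and 3 lay between 28.8 and 41.9. These same libraries, *Irf1-/-* 2, *Irf1-/-* 4, and WT 4, were the 3 lowest for *Hdac1*, *Hdac2*, *Hdac4*, and *Hdac6*, that is 4 of 10 deacetylases, against 13.5% of tested genes. They were the 3 highest for 0 of 10, against 10.8%. WT replicate 4 was the lowest WT library for 8 of 10 deacetylases, against 40.3% of tested genes. Its *S100a8* and *S100a9*, which encode neutrophil calprotectin, stood at 1033 and 1246 normalized counts, where the other libraries had at most 110 and 131. The neutrophil marker *Ly6g* was at 46.3 in this library and at most 1.07 in the others. *Mpo* (253), *Elane* (64.5), *Itgam* (1480), *Csf1r* (302), and *Lyz2* (25956) were not highest in this library. Other libraries reached 355, 67.5, 2228, 385, and 31462 for these genes. The study gated the HSCs as lineage negative, with CD11b and Gr-1 among the antibodies used. Summed over all 8 neutrophil and monocyte markers, of which *Lyz2* was the most abundant, the level was 27791, 33401, and 29633 in *Irf1-/-* and 24376, 31501, and 30380 in WT replicates 2, 3, and 4. *Lyz2* alone lay between 23206 and 31462, so this sum mostly follows *Lyz2* and cannot show the excess of *S100a8*, *S100a9*, and *Ly6g*. Whether neutrophils were present in WT replicate 4 was not tested. The part of these transcripts in the deacetylase values was not tested, and the values without this library are given where it turned a direction.

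Class I holds the nuclear enzymes with strong histone deacetylase activity. *Hdac1*, a catalytic subunit of the NuRD, Sin3, and CoREST complexes, had 13577, 14657, and 12977 normalized counts in *Irf1-/-* replicates 2, 3, and 4 and 14179, 15348, and 13647 in WT replicates 2, 3, and 4. *Irf1-/-* replicate 3 exceeded all but the highest WT library, so the genotypes overlapped. The means were 13740 ± 851 in *Irf1-/-* and 14390 ± 870 in WT HSCs (SD, *n* = 3), and the log2 fold change of −0.067 (95% interval −0.25 to 0.12, limma adjusted *P* = 0.79) was smaller than the spread within either genotype. It came to −0.11 when *Irf1-/-* replicate 3 was left out and to −0.020 when WT replicate 3 was.

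*Hdac2*, the paralog that pairs with *Hdac1* in the same complexes, had the smallest unadjusted *P* of the 10 genes (0.068, limma). Its normalized counts were 10562, 12655, and 11490 in *Irf1-/-* replicates 2, 3, and 4. In WT replicates 2, 3, and 4 they were 13537, 14212, and 11904. The 2 lowest libraries were *Irf1-/-* and the 2 highest were WT, with WT replicate 4 below *Irf1-/-* replicate 3. The mean in *Irf1-/-* HSCs was 87.5% of that in WT HSCs (11570 ± 1050 against 13220 ± 1190; SD, *n* = 3), and the log2 fold change of −0.19 (SE 0.097, 95% interval −0.40 to 0.016) had a limma adjusted *P* of 0.36. The 3 tested genes outside the deacetylases with the log2 profile most like that of *Hdac2* over the 6 libraries were *Nudc*, *Rbm43*, and *Nelfe* (Pearson *r* = 0.997, 0.997, and 0.996), with log2 fold changes of −0.25, −0.19, and −0.22. They were picked as the highest correlations among 17404 tested genes over only 6 libraries. Values near 1 and fold changes like that of *Hdac2* follow from this choice and are no evidence of shared regulation.

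Because HDAC1 and HDAC2 occupy the same complexes, the balance of their transcripts was also computed. *Hdac1* made up 56.2%, 53.7%, and 53.0% of the summed counts of both genes in *Irf1-/-* replicates 2, 3, and 4. In WT replicates 2, 3, and 4 the share was 51.2%, 51.9%, and 53.4%. The highest WT share, in replicate 4, lay above the lowest *Irf1-/-* share, and the difference of 2.15 percentage points (54.3 ± 1.7 against 52.2 ± 1.15; SD, *n* = 3) had an exact two-sided permutation *P* of 0.2, both before and after adjustment over the 2 shares tested. Without *Irf1-/-* replicate 2 the difference came to 1.19. The smallest *P* that 3 against 3 libraries can give is 0.1.

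*Hdac3* encodes the catalytic subunit of the NCoR/SMRT corepressor complexes. It had 8565, 8428, and 8334 normalized counts in *Irf1-/-* and 9232, 9634, and 8187 in WT replicates 2, 3, and 4. The *Irf1-/-* libraries lay close together, with a coefficient of variation of 1.37% against 8.29% in WT, and WT replicate 4 was the lowest of all 6. *Hdac8*, which deacetylates the cohesin subunit SMC3, had 2100, 1808, and 1899 in *Irf1-/-* and 1939, 2273, and 2095 in WT replicates 2, 3, and 4, with the libraries of the genotypes interleaved. The log2 fold changes were −0.092 (95% interval −0.28 to 0.096, adjusted *P* = 0.69) for *Hdac3* and −0.12 (−0.35 to 0.11, adjusted *P* = 0.67) for *Hdac8* by limma. Leaving out WT replicate 3 brought them to −0.042 for *Hdac3* and −0.061 for *Hdac8*. *Hdac3* came to −0.16 when WT replicate 4 was left out, and *Hdac8* came to −0.18 when *Irf1-/-* replicate 2 was.

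Summed over class I, the normalized counts were 34804, 37548, and 34700 in *Irf1-/-* and 38887, 41467, and 35832 in WT replicates 2, 3, and 4. WT replicate 4 fell within the range of the *Irf1-/-* libraries, so the class sum overlapped between genotypes. In the same fit, 16 of 16 proliferation markers had log2 fold changes below 0 (median −0.50), of which 16 had an unadjusted and 5 an adjusted limma *P* under 0.05 and 3 were called lower. Over all tested genes, 50.4% were below 0, 8.07% were lower at an unadjusted *P* under 0.05, 3.22% had an adjusted *P* under 0.05, and 0.954% were called lower. Their summed level, led by *Mcm6*, was 181190, 188221, and 155001 in *Irf1-/-* and 247431, 273354, and 197757 in WT replicates 2, 3, and 4, so both sums were lowest among WT libraries in replicate 4. The part of proliferation in the class I values was not tested.

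**Figure D2:**
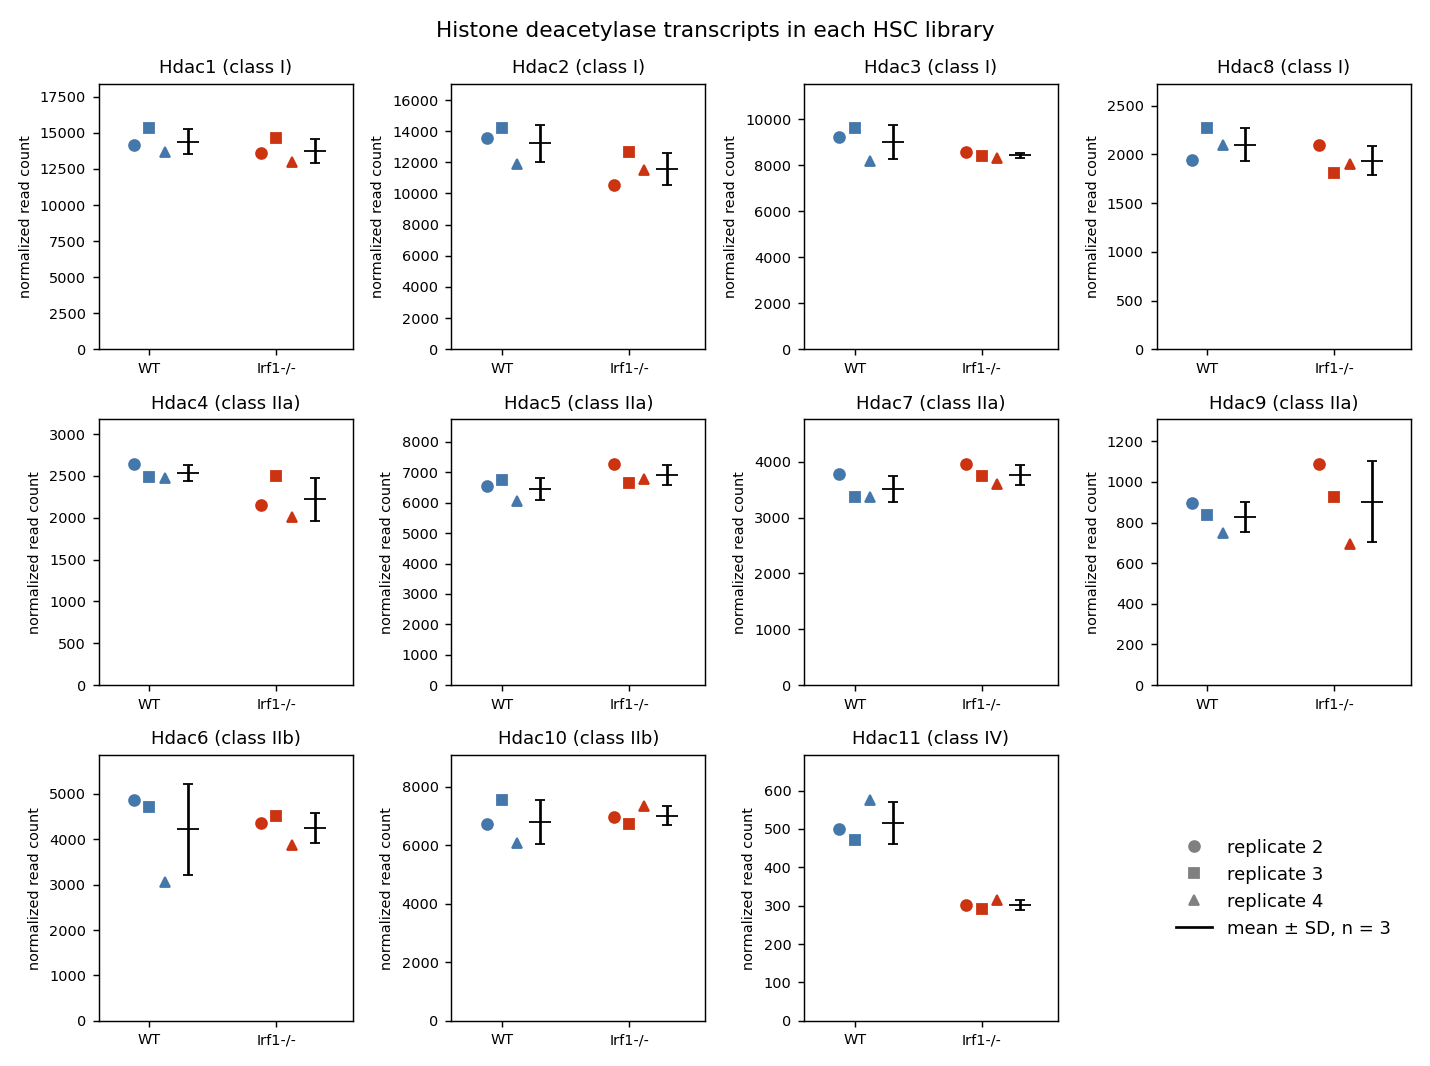
Normalized read count (y axis, from 0) of *Hdac1* to *Hdac11* in each WT and *Irf1-/-* HSC library, with symbols for replicates 2, 3, and 4 and the mean ± SD (*n* = 3) beside them. The genotypes overlap for *Hdac1* to *Hdac10*, and for *Hdac11* the *Irf1-/-* libraries (290 to 315) lie below the WT libraries (471 to 577).

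Class IIa holds *Hdac4*, *Hdac5*, *Hdac7*, and *Hdac9*, whose products bind MEF2 factors and leave the nucleus when phosphorylated. *Hdac4* had 2147, 2503, and 2003 normalized counts in *Irf1-/-* replicates 2, 3, and 4 and 2645, 2492, and 2471 in WT replicates 2, 3, and 4. *Irf1-/-* replicates 2 and 4 were below the WT libraries, and *Irf1-/-* replicate 3 was above 2 of them. The mean in *Irf1-/-* HSCs was 87.5% of that in WT HSCs (2218 ± 258 against 2536 ± 94.9; SD, *n* = 3), and the log2 fold change of −0.20 (SE 0.11, 95% interval −0.43 to 0.029, limma adjusted *P* = 0.39) was the largest in size among the 10 genes. It came to −0.29 when *Irf1-/-* replicate 3 was left out and to −0.13 when *Irf1-/-* replicate 4 was.

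*Hdac5*, the most abundant class IIa transcript per kilobase, had 7284, 6650, and 6794 normalized counts in *Irf1-/-* and 6564, 6735, and 6052 in WT replicates 2, 3, and 4. The 2 highest libraries were *Irf1-/-* and WT replicate 4 was the lowest. *Hdac7*, best known from endothelial cells and developing lymphocytes, had 3964, 3735, and 3605 in *Irf1-/-* and 3774, 3362, and 3376 in WT replicates 2, 3, and 4, with WT replicate 2 in the range of the *Irf1-/-* libraries. The log2 fold changes were close to each other, at 0.10 for *Hdac5* (95% interval −0.085 to 0.28, adjusted *P* = 0.65) and 0.11 for *Hdac7* (−0.092 to 0.30, adjusted *P* = 0.65) by limma. Leaving out *Irf1-/-* replicate 2 brought them to 0.061 for *Hdac5* and 0.069 for *Hdac7*. *Hdac5* came to 0.054 when WT replicate 4 was left out, and *Hdac7* came to 0.16 when WT replicate 2 was.

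*Hdac9* had the lowest level of the 10 genes and varied most among the *Irf1-/-* libraries, with a coefficient of variation of 22.0%. Its normalized counts were 1090, 927, and 693 in *Irf1-/-* and 895, 836, and 747 in WT replicates 2, 3, and 4. The highest and the lowest library were both *Irf1-/-*. The log2 fold change was 0.11 (95% interval −0.25 to 0.46, limma adjusted *P* = 0.83) and came to −0.039 without *Irf1-/-* replicate 2.

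The share of class IIa in the summed counts of the 10 genes was also computed. It was 23.9%, 22.1%, and 22.2% in *Irf1-/-* replicates 2, 3, and 4 and 21.6%, 20.0%, and 21.9% in WT replicates 2, 3, and 4. The genotypes did not overlap, although *Irf1-/-* replicate 3 and WT replicate 4 were nearly equal. The difference of 1.56 percentage points (22.7 ± 1.02 against 21.2 ± 1.03; SD, *n* = 3) had an exact two-sided permutation *P* of 0.1, the smallest that 3 against 3 can give, and 0.2 after adjustment over the 2 shares tested. The difference came to 0.971 without *Irf1-/-* replicate 2 and to 0.972 without WT replicate 3. Per kilobase of transcript, the class IIa share was 14.2%, 13.2%, and 13.2% in *Irf1-/-* and 13.0%, 11.8%, and 13.0% in WT replicates 2, 3, and 4, without overlap and with a smaller difference of 0.945 percentage points. On the same scale, the class I share was 68.2%, 70.1%, and 68.7% in *Irf1-/-* and 70.4%, 71.2%, and 71.9% in WT replicates 2, 3, and 4, also without overlap. Both shares are parts of the same total, so a higher class IIa share tends to lower the class I share. The class I share is thus no separate result, and it was not among the 2 shares tested.

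Class IIb comprises *Hdac6*, a cytoplasmic tubulin deacetylase, and *Hdac10*, a polyamine deacetylase. *Hdac6* had 4372, 4512, and 3870 normalized counts in *Irf1-/-* and 4877, 4711, and 3070 in WT replicates 2, 3, and 4. WT replicate 4 was the lowest library, and WT replicates 2 and 3 were the highest, which gave WT a coefficient of variation of 23.7% against 7.94% in *Irf1-/-*. The limma log2 fold change of 0.038 (95% interval −0.28 to 0.35, adjusted *P* = 0.94) came to −0.18 without WT replicate 4 (adjusted *P* = 0.34; between 0.34 and 0.99 over all alternatives) and to −0.0065 without *Irf1-/-* replicate 3.

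*Hdac10* had 6947, 6704, and 7343 normalized counts in *Irf1-/-* and 6730, 7555, and 6084 in WT replicates 2, 3, and 4. The highest and the lowest library were both WT. The log2 fold change was 0.048 (95% interval −0.16 to 0.25, limma adjusted *P* = 0.88) and came to −0.028 without WT replicate 4.

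To compare levels between genes, normalized counts were divided by the length of the longest GENCODE transcript. In WT HSCs the order per kilobase was *Hdac1* (7060 ± 427; SD, *n* = 3), *Hdac3* (4500 ± 373), *Hdac2* (4070 ± 365), and *Hdac10* (2810 ± 306), followed by *Hdac5* (1330 ± 73.2), *Hdac8* (1090 ± 86.4), *Hdac6* (1020 ± 241), *Hdac7* (828 ± 55.3), *Hdac4* (644 ± 24.1), and *Hdac9* (153 ± 13.8). The libraries overlapped between *Hdac3* and *Hdac2*, between *Hdac8* and *Hdac6*, and between *Hdac6* and *Hdac7*, and the other neighbors in this order were apart in the 3 WT libraries. Class I thus held the 3 highest levels, and *Hdac8* was the exception within it. The class IIa genes spanned the range from *Hdac5* to *Hdac9*. *Hdac11* stood at 194 ± 20.5 per kilobase, between *Hdac4* and *Hdac9*. This order rests on 1 length per gene, while the transcripts listed numbered between 1 (*Hdac1*) and 13 (*Hdac7*). The gaps between neighbors reflect the spread of the libraries only, and another length could change the order. RefSeq lists a pseudogene, *Hdac1-ps*, that has no count of its own in the table, *Hdac7* overlaps *Slc48a1*, and *Hdac5* overlaps *Mir8101*, both of which have counts in the table. *Hdac4*, *Hdac7*, *Hdac8*, *Hdac9*, and *Hdac10* also overlap other annotated genes without a count there, so the levels of these genes, *Hdac5*, and *Hdac1* are uncertain to that extent.

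*Hdac11*, the only class IV enzyme and one that removes fatty acyl groups from lysines, had 302, 290, and 315 normalized counts in *Irf1-/-* replicates 2, 3, and 4. In WT replicates 2, 3, and 4 it had 500, 471, and 577. The *Irf1-/-* libraries were all lower, at 58.6% of WT on average (302.2 ± 12.1 against 516.0 ± 54.5; SD, *n* = 3). The log2 fold change was −0.77 (SE 0.17, 95% interval −1.13 to −0.40, limma adjusted *P* = 0.027). The study lists this gene among those lower in the same libraries, so its direction here is not independent evidence. Without any 1 of the 6 libraries it stayed between −0.83 and −0.68 but was no longer called (adjusted *P* between 0.052 and 0.081; between 0.00068 and 0.098 over all alternatives).

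Relative to the geometric mean of the 10 other deacetylases, a quantity chosen after the values were seen, the log2 level of *Hdac11* was −3.96, −4.01, and −3.78 in *Irf1-/-* and −3.27, −3.38, and −2.89 in WT replicates 2, 3, and 4. The *Irf1-/-* libraries were all lower, by a mean difference of −0.74. The lowest bound among the intervals of the 10 was −0.43, for *Hdac4*, and whether *Hdac11* differed from any single deacetylase was not tested.

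The subunits of class I complexes were read from the same fit. Of 48 subunits in the NuRD, Sin3, CoREST, NCoR/SMRT, and MiDAC and MIER lists, all tested, limma called 0 (4 had an unadjusted *P* under 0.05), and edgeR and DESeq2 also called 0. Over all tested genes, 0.96% were called higher and 0.954% lower, and 8.38% and 8.07% had such an unadjusted *P*. In the NuRD complex, which couples deacetylation to nucleosome remodeling, 1 of 13 genes was higher and 2 of 13 were lower at an unadjusted *P* under 0.05, with a median log2 fold change of −0.078. *Chd3*, a remodeling ATPase of NuRD, had 1565, 1799, and 2060 normalized counts in *Irf1-/-* and 1427, 933, and 1268 in WT replicates 2, 3, and 4. The *Irf1-/-* libraries were all higher, with a log2 fold change of 0.59 (SE 0.16) whose limma adjusted *P* of 0.055 missed the threshold. It was called without WT replicate 2 (0.72, adjusted *P* = 0.032) and without WT replicate 4 (0.64, adjusted *P* = 0.047) and was not called without any 1 of the other 4 libraries, with the lowest value without WT replicate 3 (0.42, adjusted *P* = 0.20). Over all alternatives its adjusted *P* lay between 0.0057 by DESeq2, where the log2 fold change of 0.579 was just under the fold threshold, and 0.35 without the limma trend. The NuRD subunit *Cdk2ap1* had 5000, 5598, and 5102 in *Irf1-/-* and 6157, 7067, and 5978 in WT replicates 2, 3, and 4, all *Irf1-/-* libraries being lower (−0.29, adjusted *P* = 0.12 by limma and 0.034 by DESeq2, between 0.034 and 0.40 over all alternatives).

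In the Sin3 complex 0 of 13 and in the CoREST complex 0 of 10 genes had an unadjusted *P* under 0.05, with median log2 fold changes of 0.041 and 0.074. The largest single values were 0.27 for *Sap130* and −0.18 for *Suds3* among Sin3 subunits, and 0.16 for *Zmym2* among CoREST subunits. When *Irf1-/-* replicate 2 was left out, *Sap130* came to 0.13 and *Zmym2* to 0.095, and *Suds3* came to −0.28 when *Irf1-/-* replicate 3 was. In the NCoR/SMRT complex, the partner of HDAC3, 1 of 6 genes was lower at an unadjusted *P* under 0.05 (median −0.040). This gene was *Coro2a*, a subunit of the complex, with 7803, 10674, and 7780 normalized counts in *Irf1-/-* and 11384, 12275, and 10188 in WT replicates 2, 3, and 4 (−0.38, adjusted *P* = 0.11 by limma and 0.031 by DESeq2, between 0.018 and 0.44 over all alternatives). *Irf1-/-* replicate 3 overlapped the WT libraries, and *Tbl1xr1* was next in size at −0.16, which came to −0.085 when *Irf1-/-* replicate 3 was left out. In the MiDAC and MIER complexes 0 of 6 genes had such a *P* (median 0.052), with the largest values for *Mier2* (0.18) and *Trerf1* (0.097, and −0.0014 without WT replicate 3).

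Class IIa deacetylases bind MEF2 factors in the nucleus, are phosphorylated by CaM kinases, protein kinase D, and salt-inducible kinases, and are then bound by 14-3-3 proteins and exported. Of 23 genes for these partners, 22 were tested and limma called 0, as did edgeR and DESeq2. Without the fold threshold, DESeq2 counted 7 of all 70 tested partner genes at an adjusted *P* under 0.05. By the same rule it counted 673 of all 17404 tested genes as higher and 657 as lower. Of the 70, edgeR and the main limma fit counted 0. With the replicate block limma counted 6, beside 467 of all tested genes as higher and 608 as lower. At an unadjusted *P* under 0.05, 5 of 22 were higher (22.7%) and 5 of 22 lower (22.7%), beside 8.38% and 8.07% of all tested genes. The median log2 fold change was −0.070, and 13 of 22 genes were below 0. The *Irf1-/-* libraries were all higher for 6 genes and all lower for 4, beside 10.6% and 9.27% of all tested genes. The rule for named genes took *Prkd1* (0.65, adjusted *P* = 0.44), a protein kinase D gene whose libraries overlapped and whose value came to 0.32 when WT replicate 3 was left out and to 1.01 when WT replicate 2 was, and *Camk1d*. *Camk1d*, a CaM kinase gene, had 1178, 1063, and 1189 normalized counts in *Irf1-/-* and 769, 790, and 943 in WT replicates 2, 3, and 4, without overlap (0.46, SE 0.13, adjusted *P* = 0.076 by limma and 0.016 by DESeq2, between 0.016 and 0.28 over all alternatives).

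The genes of this list and of the MEF2 family given next were chosen after their values were seen. The kinase genes *Prkd3* (0.31), *Camk2d* (0.34), and *Camk1* (0.27) were higher in all *Irf1-/-* libraries, with limma adjusted *P* values of 0.062, 0.064, and 0.18. Other kinase genes lay on both sides of 0, with *Sik1* (0.29, adjusted *P* = 0.43) higher and *Sik2* (−0.28, adjusted *P* = 0.40) lower in all *Irf1-/-* libraries, *Camk4* (−0.31, adjusted *P* = 0.78) overlapping between genotypes, and *Mark2* (0.055) and *Sik3* (0.021) close to 0. *Prkd3* had 5197, 5045, and 5182 normalized counts in *Irf1-/-* and 4259, 4011, and 4161 in WT replicates 2, 3, and 4, a gap wider than the range within either genotype. *Camk2d* had 4700, 5220, and 4673 in *Irf1-/-* and 3633, 3778, and 4116 in WT replicates 2, 3, and 4. Among 14-3-3 genes, *Ywhae* (−0.24), *Ywhag* (−0.20), and *Ywhah* (−0.24) had an unadjusted *P* under 0.05, and *Ywhag* alone of these was lower in all *Irf1-/-* libraries.

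The MEF2 genes, whose products are repressed by class IIa deacetylases, had values on both sides of 0, and none passed the threshold. *Mef2c* had 13593, 12258, and 13737 normalized counts in *Irf1-/-* and 16680, 16779, and 14464 in WT replicates 2, 3, and 4 (−0.27, limma adjusted *P* = 0.13). *Mef2a* had 3060, 3485, and 2933 in *Irf1-/-* and 3908, 3808, and 3620 in WT replicates 2, 3, and 4 (−0.26, adjusted *P* = 0.18). For both, all *Irf1-/-* libraries were below the WT libraries. *Mef2d* had 6549, 6775, and 6557 in *Irf1-/-* and 5716, 5956, and 5693 in WT replicates 2, 3, and 4, all *Irf1-/-* libraries being higher (0.20, adjusted *P* = 0.24). *Mef2b* was below the minimum for testing, at 9.59, 8.64, and 7.27 in *Irf1-/-* and 0, 1.13, and 2.15 in WT replicates 2, 3, and 4.

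Because IRF1 binds DNA, windows of 250 bases before annotated transcript starts were searched on both strands for a pair of its half-sites (GAAA, any 2 bases, GAAA). The table of RefSeq promoter windows (GRCm38.p6) was matched for *Hdac2*, *Hdac4*, *Hdac5*, *Hdac6*, *Hdac7*, *Hdac8*, and *Hdac9*, and windows of *Hdac1*, *Hdac3*, and *Hdac10* were not used here. Of the 11 windows of these 7 genes, 3 lay wholly before the outermost start of their gene, and the others lay partly or entirely inside it. The pair was in 0 of 11 windows and not in that of *Hdac11*, compared with 2.98% of 32851 windows of all genes. CCAAT was in 4 of 11 windows (36.4%; *Hdac4*, *Hdac5*, *Hdac6*, and *Hdac8*), compared with 33.8% of all windows. GGGCGG, the core of sites for Sp factors, was in 5 of 11 windows (45.5%; *Hdac2*, *Hdac4*, *Hdac5*, *Hdac6*, and 1 of 4 for *Hdac7*), compared with 32.7% of all windows. The median GC content was 61.2% in the windows of the 7 genes and 52.4% in all windows. A match describes these letters only and is no evidence of binding.

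The start regions of the most and the least abundant class IIa gene per kilobase, and of the called *Hdac11*, are shown as far as they lie before the outermost RefSeq start, with CCAAT and GGGCGG in capitals on either strand. *Hdac5* is chr11:102230173-102230422 (minus strand), *Hdac9* is chr12:34917096-34917345 (minus strand), and *Hdac11* is chr6:91156565-91156669 (plus strand), all in GRCm38.p6. The *Hdac5* run holds 2 CCAAT and 1 GGGCGG, the *Hdac11* run 1 of each, and the *Hdac9* run neither.
Hdac5: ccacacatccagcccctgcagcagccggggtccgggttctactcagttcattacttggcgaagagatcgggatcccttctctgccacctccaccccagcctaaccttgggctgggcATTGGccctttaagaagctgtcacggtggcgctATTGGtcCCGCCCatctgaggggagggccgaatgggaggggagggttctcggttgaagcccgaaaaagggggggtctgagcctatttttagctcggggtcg
Hdac9: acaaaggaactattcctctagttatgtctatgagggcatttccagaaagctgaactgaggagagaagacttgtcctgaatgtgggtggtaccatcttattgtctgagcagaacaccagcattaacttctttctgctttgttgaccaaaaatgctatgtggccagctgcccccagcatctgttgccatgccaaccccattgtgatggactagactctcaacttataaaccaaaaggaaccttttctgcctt
Hdac11: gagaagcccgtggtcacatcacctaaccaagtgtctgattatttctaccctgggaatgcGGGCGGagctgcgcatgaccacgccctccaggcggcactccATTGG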

How the data were processed

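Per the submitters' processing notes and the study's methods, the authors amplified cDNA with a SMART-Seq v4 kit, made Nextera XT libraries, ran Trim Galore and HISAT2 (genome build mm39), and obtained reads per gene from Htseq-count. The deposited values are a signal, that is, gene counts divided by 1 size factor per library. The annotation and the use of strand are not given in the sources used here, so reads of overlapping genes may be shared.

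All 6 columns were used. Whole reads were recovered for 100% of values (tolerance 0.001), with 43138521, 57281017, and 45129929 reads in *Irf1-/-* and 59658080, 45332573, and 43267486 in WT replicates 2, 3, and 4. limma 3.58.1 (R 4.3.3) with an intensity trend compared the genotypes on log2(normalized count + 1) for the genes whose mean was at least 10, with Benjamini-Hochberg adjustment over all of these. On this scale the fold changes of low genes are understated. edgeR 4.0.16 and DESeq2 1.42.0 were run on the recovered reads as alternatives and called 165 and 286 genes higher and 162 and 207 lower, beside 167 and 166 by limma. Shares were compared with the exact two-sided permutation test. Functions were tested on simulated data.

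Lengths came from GENCODE vM1 by symbol, and promoter windows and gene overlaps from RefSeq GRCm38.p6. Positions are given for these windows alone. Named genes were *Hdac1* to *Hdac11*, *Irf1*, in each partner list the called genes or otherwise the 2 largest log2 fold changes, and the 3 genes most correlated with the member of smallest *P*, of which 1 partner gene is not reported here. The members and the partner and marker lists were chosen with earlier results of these data known. Alternatives covered the pseudocount, the filter, the trend, normalization, a block for the replicate number, leaving out single libraries, the tool, and the fold threshold. Figures were drawn with matplotlib 3.10.9.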

Additional observations from a re-analysis of the deposited data

How the results depend on the processing

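Over 16 alternatives, the log2 fold changes of *Hdac1* to *Hdac10* gave 160 values, of which 0 were called, 156 kept their direction, and 4 reversed, all with 1 library left out. Over the libraries left out, *Hdac6* ranged from −0.1762 to 0.1575, *Hdac9* from −0.03879 to 0.2867, *Hdac10* from −0.02808 to 0.1282, and the partner gene *Trerf1* from −0.001363 to 0.1871. The largest size was 0.2896 (*Hdac4* without *Irf1-/-* replicate 3), and the lowest adjusted *P* was 0.1233 (*Hdac2* without WT replicate 4). The causes were not tested. At an unadjusted *P* under 0.05, *Hdac2* passed with quantile normalization, median centring, the block, without *Irf1-/-* replicate 3, and without WT replicate 4, and *Hdac4* with median centring and without *Irf1-/-* replicate 3. Both shares kept their direction with each library left out, per kilobase, and with the block, and were not computed under the other alternatives. Quantile normalization and median centring reversed 0 of the 10 deacetylases but moved *Hdac1* (−0.032 and −0.098), *Hdac3* (−0.040 and −0.12), *Hdac6* (0.078 and 0.0069), and *Hdac10* (0.089 and 0.017).

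Genes called higher numbered 167 (7 without the trend, 286 by DESeq2, 301 without the fold threshold, and between 83 and 305 with 1 library left out) and genes called lower 166 (33, 207, 260, and between 105 and 265). Median centring gave 149 higher and 196 lower. Partner genes called numbered 0, and 1 with a pseudocount of 5, with a mean of at least 100, and with the replicate block, and between 0 and 1 with 1 library left out, the gene being *Chd3*. With the block, 219 genes were higher and 196 lower, and 0 of 10 deacetylases were called. *Hdac11* was not called without the trend (adjusted *P* = 0.09805). Same-numbered libraries of the genotypes deviated with correlations of −0.094, 0.246, and 0.147, so the numbers were not taken to pair the mice. *Irf1-/-* replicates 3 and 4 correlated best with the WT library of their own number, and *Irf1-/-* replicate 2 with WT replicate 4 (0.251). With 3 mice per genotype and intervals as wide as those of *Hdac9*, small differences were not detectable.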

Other observations

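Other marker lists were read from the same limma fit to compare the genotypes. A count of called genes does not show whether a cell type was present. Of 5 tested B cell markers 0 were called, as were 0 of 4 tested T and NK cell markers and 0 of 7 tested neutrophil and monocyte markers. At an unadjusted *P* under 0.05 limma and DESeq2 counted 0 genes in these 3 lists and edgeR counted 2, both of them neutrophil and monocyte markers, and edgeR and DESeq2 called 0. Of 6 endothelial and stromal markers 0 were called by limma, edgeR, or DESeq2, and each tool counted 2 at an unadjusted *P* under 0.05, of which *Emcn* (0.58, limma adjusted *P* = 0.010) was higher in all *Irf1-/-* libraries. Over all 17404 tested genes, limma, edgeR, and DESeq2 counted 2863, 2893, and 3045 at an unadjusted *P* under 0.05. In limma 8.38% were higher and 8.07% lower by that rule, and 0.96% were called higher and 0.954% lower. Of 8 HSC markers, 5 were higher and 1 was lower at an unadjusted limma *P* under 0.05. Among them *Fgd5* was called higher (0.83), and *Procr* (0.52) and *Ly6a* (−0.43) had an adjusted *P* under 0.05 without passing the fold threshold. Of 5 megakaryocyte markers, *Pf4* (−1.11) and *Gp1bb* (−0.90) were called lower, and of 3 tested erythroid markers *Klf1* was called lower (−0.72), while *Hba-a1*, *Hbb-bs*, and *Hbb-bt* were listed at 0 in all 6 libraries. The relation of these lists to the deacetylase values was not tested.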
